A study of Mus musculus with 10 samples.

Results

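The interferon-induced genes and the immunity-related GTPases are the genes that a cell switches on after an interferon signal. A set of 44 of them was followed in mouse liver, out of 23420 genes in the deposited count files. The 44 were chosen by gene family and function, with their starved-against-fed fold changes in these same libraries already known. That contrast is therefore described here without a test of the set. All 44 were matched by symbol and all 44 passed the filter on low counts.

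The study sequenced total RNA from liver of male C57BL/6 mice aged 4 months. In the fed group (5 libraries) the mice had standard chow, and in the starved group (5 libraries) they had no food but free water for 48 hours. Both groups shared strain, sex, age, tissue and library kit, and the labels name no interferon, infection or genetic change. The labels speak of pairs of mice but do not tie a library to an animal by name, so the spread between libraries is taken as the spread between mice on that basis only.

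Interferons are secreted proteins that warn cells of infection. Type I interferon binds the IFNAR1-IFNAR2 receptor, whose kinases JAK1 and TYK2 phosphorylate STAT proteins. Among these STAT2 joins IRF9 in a complex that binds the interferon-stimulated response element. Type II interferon (interferon gamma) acts through JAK1 and JAK2, and its response runs through the gamma-activated site. In liver the macrophages (Kupffer cells), endothelial cells and hepatocytes can all respond, and a low level of these transcripts is present without infection.

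Counts in genes summed to between 18197194 and 29941358 per library. All 10 hepatocyte markers examined were detected in every library, with a summed level of 125180 to 172111 CPM in fed and 139383 to 206798 CPM in starved livers. CPM is a gene's count relative to its library's total, here after TMM scaling, which adjusts the totals for differences in RNA composition. Kupffer cell and macrophage markers moved with the contrast: 11 of 12 were called lower in the starved group, and their summed level was 572 to 949 CPM in fed and 253 to 499 CPM in starved livers, with none of the 12 at 0 in any library. Of 6 neutrophil markers 4 were called higher, with sums of 4.57 to 7.02 CPM in fed and 5.62 to 32.1 CPM in starved livers. Cholangiocyte markers summed to 46.5 to 57.4 CPM in fed and 15.0 to 40.8 CPM in starved livers, with 1 of 5 tested called lower. B cell markers summed to 4.08 to 6.44 CPM in fed and 0.855 to 5.11 CPM in starved livers, with 1 of 5 called lower. Of 10 endothelial markers 4 were called lower and 1 higher, and of 4 tested T cell markers 0 were called. For scale, 20.0% of all tested genes were called lower and 18.6% higher. The part of these cell types in the results that follow was not tested. In bulk RNA, fewer cells of a type and less RNA per cell cannot be told apart.

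Of the 44 genes, 39 were called lower in the starved livers, 0 were called higher and 5 did not pass the threshold (edgeR quasi-likelihood test, Benjamini-Hochberg adjusted p under 0.05 over 12796 tested genes). Over all tested genes 20.0% were called lower and 18.6% were called higher. At least 2-fold lower were 33 of the 44, against 7.79% of all tested genes. In 35 of the 44 every starved library lay under every fed library, a pattern seen in 16.7% of all tested genes. In none of the 44 did every starved library lie above every fed library, against 13.2% of all tested genes. The log2 fold changes (starved over fed) ranged from −3.42 for Zbp1 to −0.17 for Mx2, with a median of −1.32, so that all 44 lay under 0 and DESeq2 and limma-voom also called 0 higher. The median over all tested genes was 0.00346. Since the set was selected on this contrast, these shares describe the set and nothing is read from them.

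Starved libraries 2 and 4 stood apart. The median log2 ratio of the 44 genes to their fed means was −1.78 in starved library 2 and −1.71 in starved library 4, but −1.25, −1.22 and −0.95 in starved libraries 1, 3 and 5. One or the other of libraries 2 and 4 held the lowest starved value of 40 of the 44 genes. In 30 genes both lay under the other 3 starved libraries. These 2 counts are given without the share over all genes, and the 2 libraries stood apart beyond the 44 as well. Over genes with at least 10 counts in a pair, chi-square per degree of freedom was 117 to 263 in starved pairs with library 2 or 4. In pairs of starved libraries 1, 3 and 5 it was 11.2 to 47.8. Reads not assigned uniquely were 38.6% of those tallied in starved library 2 and 40.7% in starved library 4. In the other starved and all fed libraries they were 43.4 to 48.4%. The same 2 libraries had the highest summed neutrophil markers, at 24.9 and 32.1 CPM against 5.62 to 13.8 CPM in the other starved libraries, and the lowest summed cholangiocyte markers, at 16.1 and 15.0 CPM against 35.8 to 40.8 CPM. They were also the lowest starved libraries in the summed markers of T cells (1.44 and 1.48 CPM against 2.49 to 4.03 CPM), B cells (0.855 and 1.81 CPM against 2.32 to 5.11 CPM) and NK cells (0.802 and 1.84 CPM against 3.25 to 4.09 CPM). Kupffer cell markers were at 403 and 253 CPM there, against 408 to 499 CPM. The part of these cell types in the difference between libraries was not tested. Without those 2 libraries 42 of the 44 genes were called lower and 0 higher, where 20.7% and 20.2% of the 13080 genes then tested were called. The count that was at least 2-fold lower became 26, against 5.89% of all genes tested, and the median log2 fold change became −1.13. Libraries 1, 3 and 5 all lay under the 5 fed libraries in 39 of the 44 genes. The share of all tested genes with that pattern is not given here. Such a pattern is met more easily by 3 starved libraries than by 5, so nothing is read from this count.

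**Figure D1:**
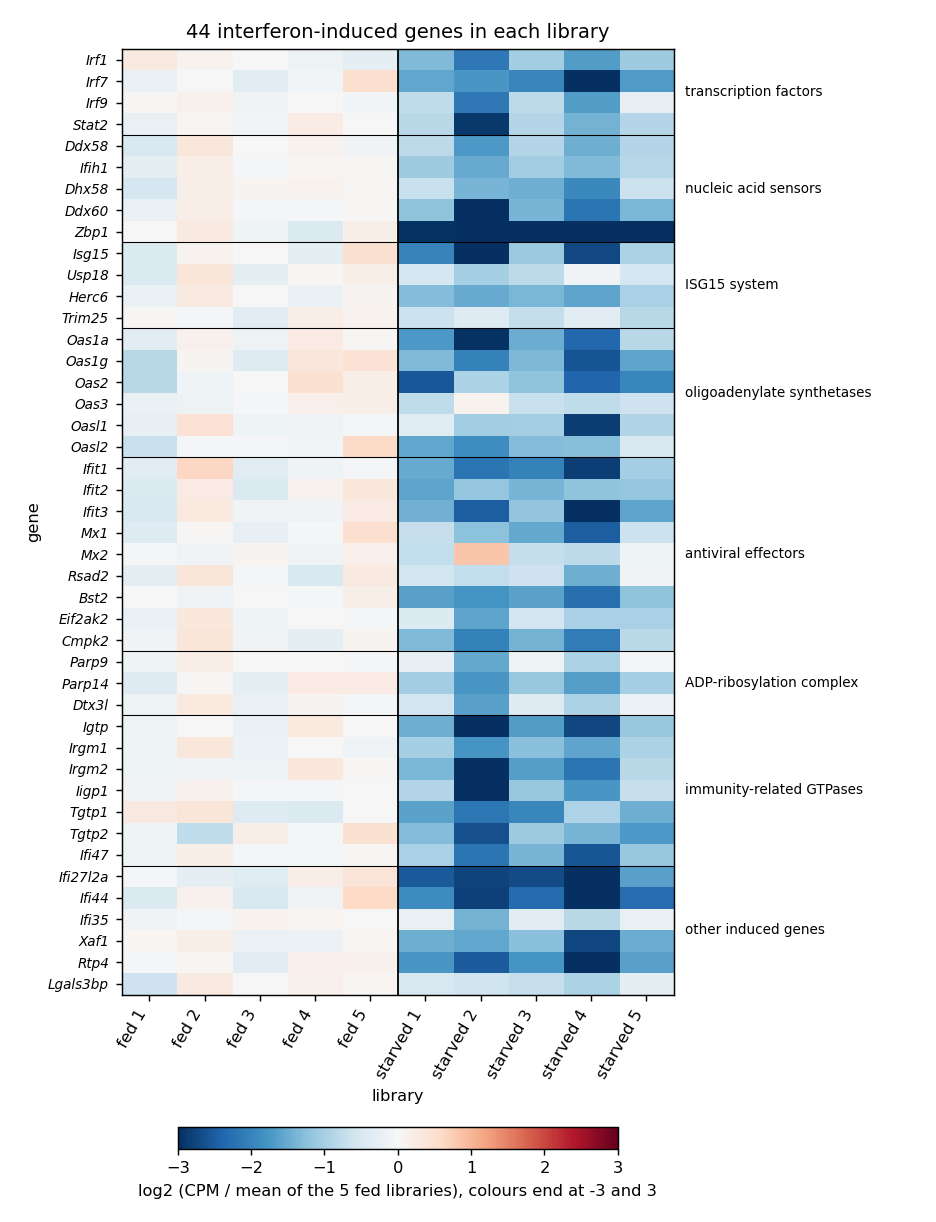
Each row is 1 of the 44 genes, ordered by role, and each column is 1 library; the colour is the log2 ratio of its CPM to the mean of the 5 fed libraries, ending at −3 and 3. The starved columns are blue for nearly every gene, darkest in starved libraries 2 and 4, while Mx2 and Oas3 are above their fed mean in starved library 2.

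**Figure D2:**
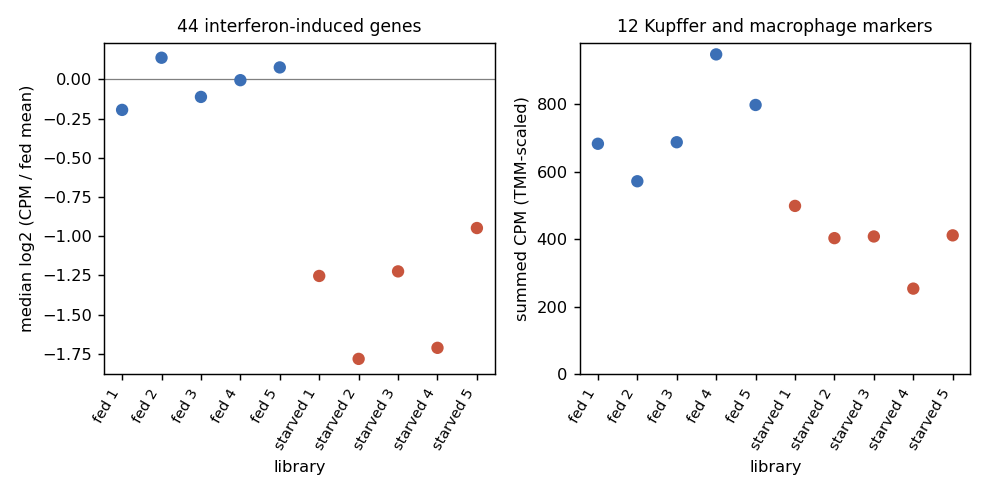
Points give, for each library, the median over the 44 genes of the log2 ratio to the fed mean (left) and the summed CPM of 12 Kupffer cell and macrophage markers (right). On the left the fed libraries lie between −0.19 and 0.14 and the starved libraries between −1.78 and −0.95; on the right starved library 4 is the lowest, at 253 CPM, and starved library 2, at 403 CPM, lies near libraries 3 and 5.

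The transcription factors that carry and amplify the signal were all lower. IRF7 drives the later wave of interferon alpha genes, IRF1 is itself induced through the gamma-activated site, and STAT2 and IRF9 are parts of the complex that binds the response element in the type I response. Irf7 stood at 37.8, 42.9, 34.3, 41 and 60.8 CPM in fed libraries 1 to 5 and at 14.8, 12.8, 11, 5.24 and 13.4 CPM in starved libraries 1 to 5. The groups did not overlap, and the starved mean was 26.4% of the fed mean (log2 fold change −1.92, SE 0.25). Irf1 was at 53.3, 47.6, 43.5, 40.003 and 36.2 CPM in the fed libraries and at 17.6, 10.048, 21.4, 13.9 and 21 CPM in the starved ones, again with no overlap and a log2 fold change of −1.39 (SE 0.20). For Stat2 the fed values were 22.2, 26.6, 24.3, 30.1 and 25.7 CPM and the starved values 14.5, 3.47, 13.9, 9.68 and 13.9 CPM. Its starved library 2 was the lowest by a wide margin, and the log2 fold change moved from −1.21 (SE 0.29) to −0.85 without libraries 2 and 4. Irf9 fell by 0.97 on the log2 scale (SE 0.28) with no overlap, and by 0.56 without those 2 libraries.

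The cytosolic sensors of foreign nucleic acid were lower in all 5 cases. RIG-I (Ddx58), MDA5 (Ifih1) and LGP2 (Dhx58) are helicases that recognise viral RNA, DDX60 is a related helicase, and ZBP1 binds Z-form nucleic acid and can start cell death. Zbp1 had the lowest starved level relative to fed among the 44 genes. It stood at 7.97, 9.48, 7.21, 5.85 and 8.98 CPM in the fed libraries and at 1.01, 0.481, 0.984, 0.253 and 0.985 CPM in the starved ones. Every starved value was under every fed value, and the starved mean was 9.41% of the fed mean (log2 fold change −3.42, SE 0.31, and −2.96 without starved libraries 2 and 4). Ddx60 was at 9.2, 12.1, 10.2, 10.3 and 10.8 CPM in fed livers and at 4.55, 1.28, 4.03, 2.31 and 4.06 CPM in starved livers. Its log2 fold change was −1.69 (SE 0.27) with no overlap. Ifih1, the highest of the 5 per kilobase of exon, was at 43.8, 61, 50.9, 55.5 and 54.4 CPM in fed livers and at 25.2, 18.8, 25.8, 21.2 and 29.5 CPM in starved livers. Its starved values lay close to each other, and the log2 fold change was −1.14 (SE 0.14). Ddx58 and Dhx58 fell by 1.10 (SE 0.20) and 1.14 (SE 0.25) on the log2 scale, both without overlap.

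ISG15 is a ubiquitin-like protein that is attached to other proteins after an interferon signal. HERC6 is the mouse ligase for it, USP18 removes it and also dampens the receptor, and TRIM25 is a ubiquitin ligase that acts with RIG-I. Isg15 stood at 1.76, 2.52, 2.32, 1.93 and 3.22 CPM in the fed libraries and at 0.584, 0.267, 1.08, 0.361 and 1.22 CPM in the starved ones, a log2 fold change of −1.77 (SE 0.36) with no overlap. Herc6 was at 23.4, 32.5, 26.5, 23.6 and 28.5 CPM in fed livers and at 10.9, 9.46, 10.5, 9.0 and 13.8 CPM in starved livers. The starved values were similar to each other, and the log2 fold change was −1.33 (SE 0.14). Trim25 was at 41.3, 39.3, 31.5, 45.8 and 42.9 CPM in fed livers and at 25.8, 30.7, 24.4, 32 and 22.5 CPM in starved livers. It fell by 0.57 on the log2 scale (SE 0.13), the groups overlapped, and starved libraries 2 and 4 were here the highest of the starved group. Usp18 fell by 0.55 on the log2 scale (SE 0.20), with overlap between the groups, and its call was lost when any one of fed libraries 2, 4 and 5 or starved libraries 1, 2, 3 and 5 was left out.

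The oligoadenylate synthetases make the short 2′-5′ linked adenylates that activate RNase L against viral RNA. All 6 genes of the set lie on chromosome 5, and 5 of the 6 were called lower. Oas1a stood at 2.63, 3.65, 2.98, 3.96 and 3.42 CPM in the fed libraries and at 1.01, 0.428, 1.18, 0.650 and 1.85 CPM in the starved ones (log2 fold change −1.72, SE 0.30). Of its 50-base windows 57.6% also occur in Oas1g or Oas1b. Reads that did not align uniquely were left out of the gene counts, so its level may be too low. Oas2, among the lowest of the 44 per kilobase of exon, was at 0.632, 1.03, 1.14, 1.55 and 1.29 CPM in fed livers and at 0.195, 0.588, 0.492, 0.217 and 0.290 CPM in starved livers. Its groups did not overlap, with a log2 fold change of −1.69 (SE 0.34). Oasl2 was at 2.46, 3.78, 3.75, 3.65 and 5.76 CPM in fed livers and at 1.32, 1.07, 1.57, 1.59 and 2.84 CPM in starved livers. Its groups overlapped at starved library 5 and fed library 1, with a log2 fold change of −1.22 (SE 0.28). Oas1g (log2 fold change −1.69, SE 0.33) and Oasl1 (−1.04, SE 0.33) were also called lower, but Oasl1 lost its call without fed library 2. Oas3 had a log2 fold change of −0.51 (SE 0.19) and was not called. Its starved library 2 was at 5.34 CPM, above the other 4 at 2.92 to 3.25 CPM, and without it the log2 fold change was −0.69 and passed the threshold.

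**Figure D3:**
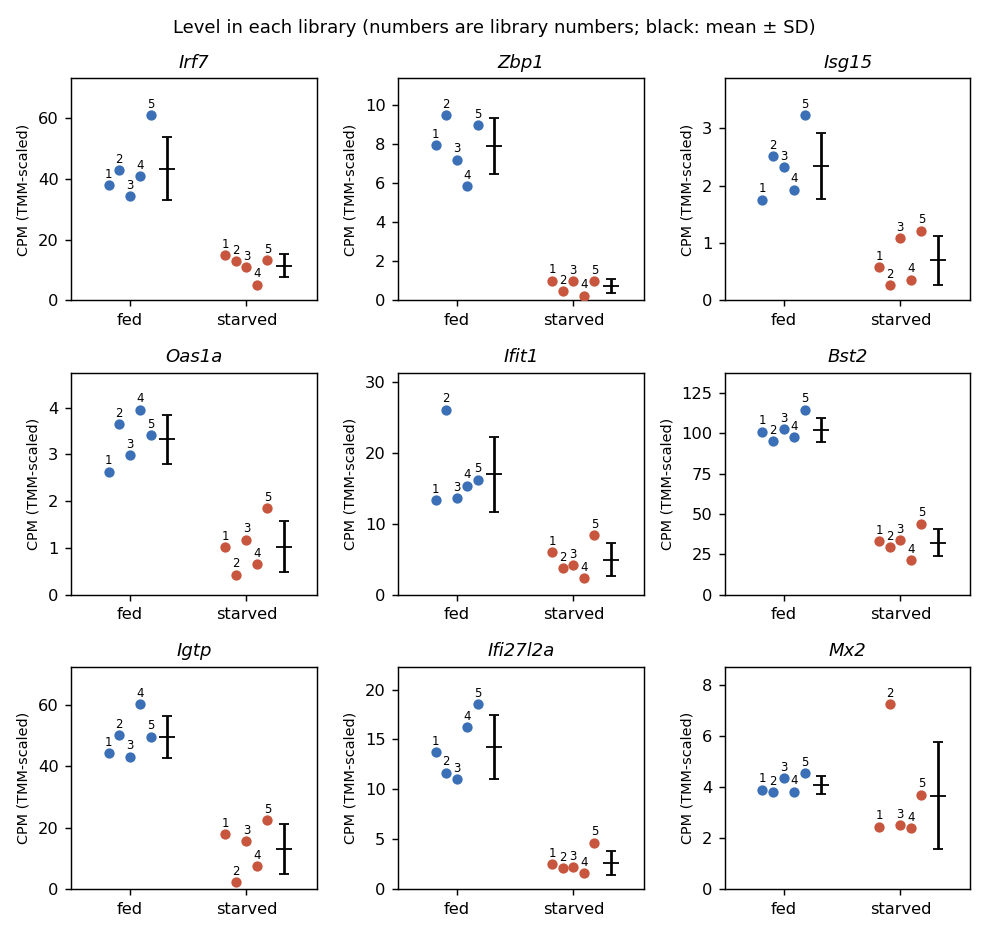
Each panel is 1 gene on its own linear axis of TMM-scaled CPM that starts at 0; points are single libraries with their numbers, and black bars are the mean ± SD of 5 libraries. Fed and starved points are apart in 8 of the panels, while in the panel of Mx2 starved library 2, at 7.27 CPM, lies above all fed libraries.

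Among the 9 antiviral effectors 7 were called lower. The IFIT proteins bind foreign RNA ends and block translation, tetherin (Bst2) holds budding virus at the membrane, MX proteins are dynamin-like GTPases that trap viral particles, PKR (Eif2ak2) stops translation on double-stranded RNA, and viperin (Rsad2) and CMPK2 act together on nucleotides. Ifit3 stood at 7.34, 12.5, 9.38, 9.36 and 12 CPM in the fed libraries and at 3.7, 1.82, 4.47, 0.903 and 3.36 CPM in the starved ones (log2 fold change −1.83, SE 0.35). Ifit3 shares 51.2% of its 50-base windows with Ifit3b, so reads from these windows may be missing from its count. Ifit1 was at 13.4, 26.1, 13.7, 15.4 and 16.3 CPM in fed livers and at 5.99, 3.74, 4.18, 2.38 and 8.4 CPM in starved livers. Fed library 2 was far above the other fed libraries, yet the groups did not overlap, and the log2 fold change was −1.79 (SE 0.31). Bst2, among the highest of the 44 per kilobase of exon, was at 101, 95.2, 103, 97.8 and 115 CPM in fed livers and at 33.1, 29.4, 33.6, 21.2 and 44.1 CPM in starved livers. All starved values lay far under the fed ones, at 31.6% of the fed mean (log2 fold change −1.66, SE 0.16). Bst2 also marks plasmacytoid dendritic cells. Of the other 6 markers listed for that cell type, 4 (Siglech, Runx2, Klk1 and Ccr9) were too low to test, Ly6d rose by 1.69 (SE 0.35) and Tcf4 fell by 0.45 (SE 0.12) on the log2 scale.

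Ifit2 (log2 fold change −1.29, SE 0.19), Cmpk2 (−1.47, SE 0.24), Mx1 (−1.19, SE 0.32) and Eif2ak2 (−0.84, SE 0.19) were called lower with no overlap between groups. Rsad2 had a log2 fold change of −0.64 (SE 0.24), its groups overlapped and it was not called, although it passed when fed library 4 or starved library 5 was left out. Mx2, listed in GENCODE as a polymorphic pseudogene, had a log2 fold change of −0.17 (SE 0.29) and was not called. It was at 3.9, 3.81, 4.34, 3.82 and 4.55 CPM in the fed libraries and 2.45, 7.27, 2.51, 2.38 and 3.71 CPM in the starved ones. Starved library 2 was the highest of all 10 for this gene, and without it the log2 fold change was −0.56 and passed the threshold. In that library Mx1, which also lies on chromosome 16, was at 0.428 CPM, under every fed value.

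PARP14, PARP9 and DTX3L add ADP-ribose or ubiquitin to proteins, PARP9 and DTX3L as a complex. Parp14 stood at 26.4, 35.4, 28.2, 41.1 and 41.1 CPM in the fed libraries and at 16.8, 10.3, 15.6, 10.9 and 17.3 CPM in the starved ones, with no overlap and a log2 fold change of −1.28 (SE 0.19). Dtx3l was at 66.4, 91.7, 64, 78.6 and 70.8 CPM in fed livers and at 49.6, 24.1, 57.2, 38.7 and 65.9 CPM in starved livers. Its groups overlapped at starved library 5, starved libraries 2 and 4 were the lowest, and its log2 fold change of −0.66 (SE 0.23) lost the call when fed library 1, 2, 4 or 5 or starved library 1 or 4 was left out. Parp9, which shares 7.71% of its 50-base windows with Dtx3l from the opposite strand, had a log2 fold change of −0.48 (SE 0.24) and was not called.

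The immunity-related GTPases are interferon-induced proteins that load onto the vacuoles of intracellular parasites and bacteria. In mice the regulatory members IRGM1, IRGM2 and IGTP (Irgm3) keep the effector members, such as IIGP1 (Irga6), TGTP (Irgb6) and IFI47 (Irgd), inactive on the cell's own membranes. All 7 genes of the set were called lower with no overlap between groups, with log2 fold changes from −1.92 to −1.28. Igtp stood at 44.2, 50.1, 43.1, 60.3 and 49.7 CPM in the fed libraries and at 17.9, 2.19, 15.5, 7.44 and 22.4 CPM in the starved ones. Its starved libraries 2 and 4 were far under the other 3, and the log2 fold change of −1.92 (SE 0.44) became −1.40 without them. Irgm2 showed the same spread, with 40.5, 41.8, 40.5, 56.2 and 45.7 CPM in fed livers and 17.5, 3.26, 14.3, 9.83 and 25.1 CPM in starved livers (log2 fold change −1.69, SE 0.38, and −1.23 without the 2 libraries). Igtp and Irgm2 share 162 exon bases on the same strand. Of the 50-base windows of Igtp 11.8% also occur in Irgm2, so reads from these windows may be missing from both counts. Ifi47 was at 21.9, 27.2, 23.3, 23.8 and 24.8 CPM in fed livers and at 12.3, 5.29, 9.24, 4.12 and 11 CPM in starved livers. Its log2 fold change was −1.53 (SE 0.26).

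Iigp1, with Bst2 the highest of the 44 per kilobase of exon, was at 622, 729.7, 649, 653 and 667 CPM in the fed libraries and 359, 70.7, 301, 198 and 409.7 CPM in the starved ones. The starved values spread widely, from the lowest in library 2 to the highest in library 5, and the log2 fold change of −1.31 (SE 0.35) became −0.88 without libraries 2 and 4. Irgm1 fell by 1.28 on the log2 scale (SE 0.17). For the regulators Irgm1, Irgm2 and Igtp and the effectors Iigp1 and Ifi47, starved libraries 2 and 4 were in each case the lowest pair of all 10 libraries. Tgtp1 and Tgtp2 had log2 fold changes of −1.52 (SE 0.26) and −1.50 (SE 0.30), at under 2 CPM in fed livers on average. They share 81.2% and 86.6% of their 50-base windows with each other or a further copy. Reads from these windows may be missing from the counts, so both levels may be too low.

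Of the 7 GTPase genes 6 lie on chromosome 11, and the promoters of 4 carried one shared arrangement of motifs. The other GTPase genes of the set were lower as well. Ifi47 (log2 fold change −1.53) had neither motif in its window, and Irgm1 (−1.28) had response elements but no gamma-activated site. Iigp1 (−1.31) had no RefSeq promoter window. The stretches below show the shared arrangement. They are printed 5′ to 3′ in the direction of the gene, from RefSeq promoter windows (250 bases before the start, build GRCm38.p6), and lie outside GENCODE exons. Capitals mark the gamma-activated site TTCNNNGAA and the response element, searched on both strands as GAAA and GAAA with any 2 bases between.
Igtp, chr11:58199482-58199551, plus strand: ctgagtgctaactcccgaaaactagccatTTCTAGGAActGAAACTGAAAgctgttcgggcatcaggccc
Irgm2, chr11:58214873-58214942, plus strand: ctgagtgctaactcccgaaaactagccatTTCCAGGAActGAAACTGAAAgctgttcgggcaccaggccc
Tgtp1, chr11:48992294-48992363, minus strand: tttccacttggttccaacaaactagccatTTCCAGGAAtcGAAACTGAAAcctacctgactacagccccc
Tgtp2, chr11:49064253-49064322, minus strand: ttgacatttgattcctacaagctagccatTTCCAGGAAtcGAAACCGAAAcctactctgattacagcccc
In all 4 a gamma-activated site is followed after 2 bases by a response element. This arrangement, described after the sequences were seen, occurred in 5 of 32851 promoter windows (0.0152%); the fifth belongs to Gm12185, a gene with 9 to 17 counts in fed and 3 to 9 counts in starved libraries, which was not tested. The Igtp and Irgm2 stretches were identical at 68 of 70 positions (97.1%) and those of Tgtp1 and Tgtp2 at 53 of 70, so the 4 windows are not independent of each other.

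Outside this family the motifs stood in other arrangements. The next stretches show a chain of response elements (Isg15), a gamma-activated site that runs into response elements (Bst2) and a gamma-activated site alone (Irf1), with capitals as before.
Isg15, chr4:156200855-156200924, minus strand: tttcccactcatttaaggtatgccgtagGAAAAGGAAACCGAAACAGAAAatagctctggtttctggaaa
Bst2, chr8:71537567-71537636, minus strand: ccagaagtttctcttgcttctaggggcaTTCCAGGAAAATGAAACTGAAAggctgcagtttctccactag
Irf1, chr11:53769884-53769952, plus strand: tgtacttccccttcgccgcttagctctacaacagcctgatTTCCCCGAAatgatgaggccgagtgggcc
RefSeq promoter windows were found for 33 of the 44 genes. The response element matched in 15 of the 33 (45.5%), against 3.46% of the 27025 genes in the table and 3.31% of the 9505 tested genes with a promoter. The gamma-activated site matched in 9 of the 33 (27.3%), against 8.13% of all genes with a promoter. Both matched in 6 of the 33 (18.2%), against 0.459% of all genes: Oas1a, Bst2, Igtp, Irgm2, Tgtp1 and Tgtp2. The median log2 fold change was −1.69 over the 15 genes with a response element match and −1.18 over the 18 without one; Irf7, Ifi44 and Irf1 were among the latter and were lower as well. These matches describe letters in a window and not bound sites.

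The remaining 6 genes have mixed or little-known roles, and 5 were called lower. Ifi27l2a, of the IFI27 family of small membrane proteins, stood at 13.7, 11.7, 11, 16.2 and 18.6 CPM in the fed libraries and at 2.49, 2.08, 2.21, 1.55 and 4.64 CPM in the starved ones. No starved value came near the fed range, and the starved mean was 18.2% of the fed mean (log2 fold change −2.47, SE 0.27). Ifi44 was at 6.15, 9.08, 5.96, 7.64 and 12.4 CPM in fed livers and at 2.22, 1.18, 1.67, 0.723 and 1.68 CPM in starved livers, a log2 fold change of −2.46 (SE 0.30). Rtp4, a receptor transporter protein with antiviral activity, was at 17.8, 19.1, 14.5, 20.6 and 19.966 CPM in fed livers and at 5.45, 3.26, 5.36, 1.84 and 5.97 CPM in starved livers. Its groups were far apart as well, with a log2 fold change of −2.08 (SE 0.27). Xaf1, a promoter of apoptosis, fell by 1.63 on the log2 scale (SE 0.23). Lgals3bp, a secreted glycoprotein, fell by 0.58 (SE 0.17) with overlap between groups, and lost the call without starved library 4. Ifi35 had a log2 fold change of −0.54 (SE 0.20) and was not called, though its groups did not overlap; it passed without any one of starved libraries 1, 2, 3 and 5.

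**Figure D4:**
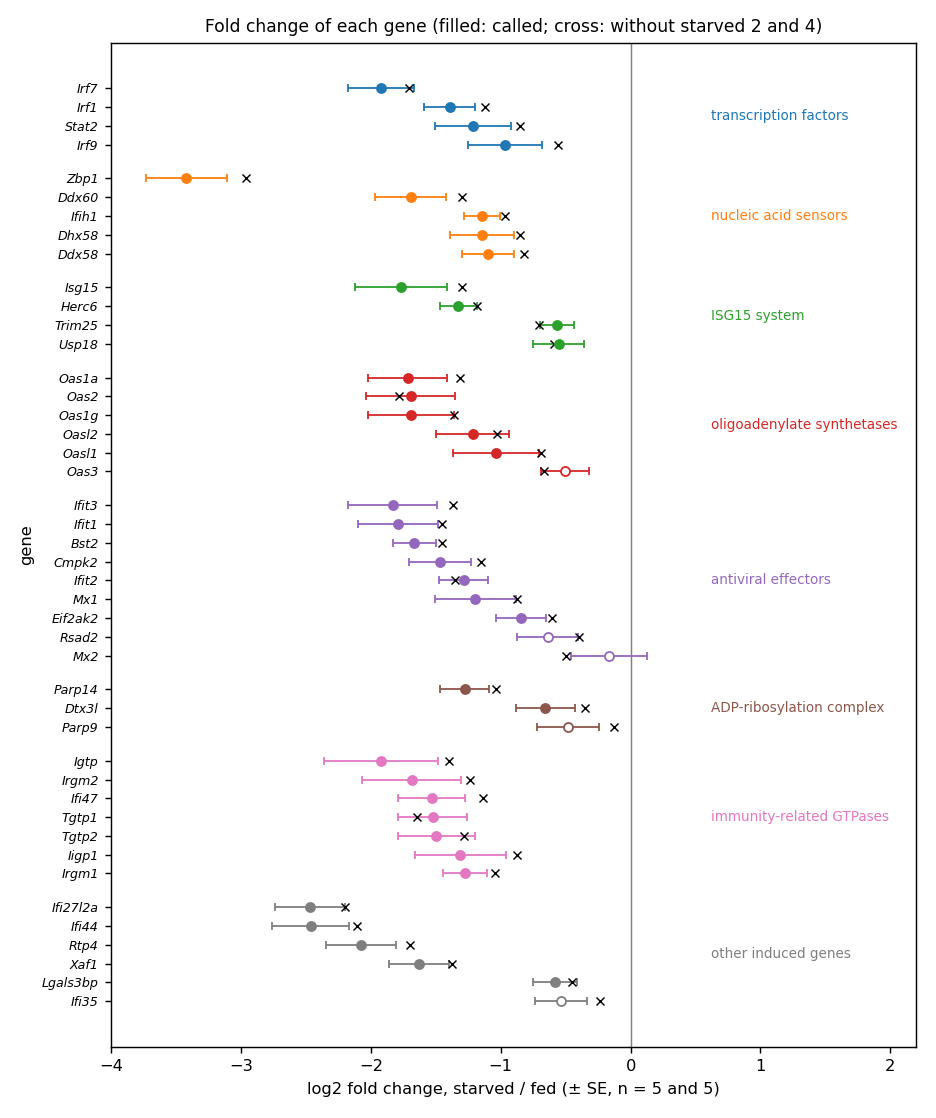
Points are log2 fold changes (starved over fed) of the 44 genes with bars of 1 standard error, by role group. Filled points were called, and crosses give the value without starved libraries 2 and 4. All 44 points lie under 0, from −3.42 for Zbp1 to −0.17 for Mx2, and the immunity-related GTPases lie between −1.92 and −1.28.

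Levels can be compared between genes only per length of transcript. Genes that share sequence with a copy may be placed too low, since reads that did not align uniquely were not counted. Per kilobase of exon, the fed mean was 114 ± 6.87 CPM (SD, n = 5) for Iigp1 and 113 ± 8.32 CPM (SD, n = 5) for Bst2, which did not differ beyond their spread. Far under these, Ifi27l2a was at 30.7 ± 6.84, Igtp at 24.5 ± 3.38 and Lgals3bp at 21.3 ± 4.48 CPM per kilobase, and neighbours among these 3 lay within their spread of each other. At the lower end stood Oas2 at 0.253 ± 0.0761 and Mx1 at 0.265 ± 0.0653 CPM per kilobase. By mean, Iigp1 and Bst2 were still first and second in starved livers, Lgals3bp came next, and Zbp1 moved from place 28 to place 39. The coefficient of variation was larger among starved than among fed livers for 41 of the 44 genes, and for 82.2% of all tested genes. Without starved libraries 2 and 4 it was larger for 19 of the 44 and for 49.5% of all tested genes.

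The pathway above these genes held calls in both directions, as did all tested genes. Of 10 interferon ligand genes, 7 had no read in any library, and the highest count of any ligand in any library was 10; a count of 3, the limit that no reads allow, corresponds to 0.0994 to 0.174 CPM. Counts that low say nothing about a change in the ligands themselves. Of 39 tested pathway genes outside the 44, 4 were called higher and 11 lower (28.2% lower), with a median log2 fold change of −0.29. Of all tested genes 18.6% were called higher and 20.0% lower. Among 5 tested receptor genes Ifnar2 rose, from 55.9 ± 7.44 to 76.5 ± 9.16 CPM (mean ± SD, n = 5 each; log2 fold change 0.45, SE 0.12, edgeR quasi-likelihood adjusted p = 0.011). Its partner Ifnar1 averaged 41.8 ± 6.83 CPM in the fed group, 45.4 ± 4.5 CPM in the starved group, and was not called.

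Among the kinases of the receptors, Tyk2 and Jak2 fell by 0.88 (SE 0.14) and 0.57 (SE 0.13) on the log2 scale. Of 6 other interferon regulatory factors 2 fell, with Irf5, a factor of macrophages and B cells, lower by a log2 fold change of −1.66 (SE 0.17). Of 13 genes that sense infection upstream, Ticam1, an adaptor of TLR3 and TLR4, rose by 0.90 on the log2 scale (SE 0.16). Tlr3, Ifi204 and Traf3 fell by 1.04 (SE 0.17), 0.96 (SE 0.23) and 0.84 (SE 0.18).

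Of 9 tested inhibitors 2 were called higher and 2 lower, near the 18.6% and 20.0% of all tested genes. The median log2 fold change of the inhibitors went from 0.24 to −0.023 without starved libraries 2 and 4. Irf2bp2, a corepressor, was at 40.1, 40.3, 63.5, 52.4 and 53.5 CPM in the fed libraries and at 42.4, 479.7, 52.4, 120.4 and 134 CPM in the starved ones. The rise of 1.73 on the log2 scale (SE 0.56) became 0.81 without starved library 2 alone, and 0.62 and no longer called without libraries 2 and 4; the call was also lost without fed library 1, 2, 4 or 5. Ptpn2, a phosphatase of JAK and STAT proteins, rose by 0.73 (SE 0.16). Trim30a and Pias3 fell by 1.27 (SE 0.20) and 0.56 (SE 0.12). Socs3, a feedback inhibitor, averaged 6.01 ± 1.86 CPM in the fed group against 7.53 ± 3.7 CPM in the starved group (mean ± SD, n = 5 each) and was not called, and Socs1 was too low to test.

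Other interferon-induced genes outside the 44 give a view of the response beyond the set, though these lists too were drawn up with results of these data known. Of 42 tested, 28 were called lower and 0 higher by edgeR (1 was higher at an unadjusted p under 0.05, and DESeq2 called 0), with a median log2 fold change of −0.81. Among all tested genes edgeR called 20.0% lower and 18.6% higher. Apol9a and Apol9b fell by 2.47 (SE 0.38) and 2.41 (SE 0.32) on the log2 scale, and Ube2l6, the conjugating enzyme for ISG15, fell by 2.18 (SE 0.30). Without starved libraries 2 and 4 the log2 fold changes of these genes were −2.01, −2.02 and −1.73. The guanylate-binding proteins, large GTPases that act on the same vacuoles as the immunity-related GTPases, were called lower in 9 of 10 genes, with a median log2 fold change of −1.82. Gbp6 stood at 10.7, 12.3, 10.8, 7.3 and 10.3 CPM in the fed libraries and at 2.26, 1.12, 1.82, 1.12 and 1.91 CPM in the starved ones (log2 fold change −2.64, SE 0.23). Gbp3 was at 17.9, 20.5, 15.2, 14.7 and 24 CPM in fed livers and at 4.79, 2.73, 3.0, 2.28 and 4.11 CPM in starved livers. Gbp10 had 177 to 376 counts in fed and 0 to 7 counts in starved libraries, near the limit of detection, so the size of its change is imprecise.

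Of 21 tested antigen presentation genes, 15 were called lower by edgeR and 0 higher (0 also at an unadjusted p under 0.05), with a median log2 fold change of −0.85. The shares over all tested genes were 20.0% lower and 18.6% higher. The immunoproteasome subunits Psmb8 and Psmb9 fell by 1.75 (SE 0.22) and 1.79 (SE 0.34) on the log2 scale, and Ciita, the switch for class II genes, fell by 2.10 (SE 0.38). Whether these lists differed from the 44 genes was not tested. The Kupffer cell markers given above were lower in the same contrast, with a median log2 fold change of −0.90, and their part in these lists was not tested.

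**Figure D5:**
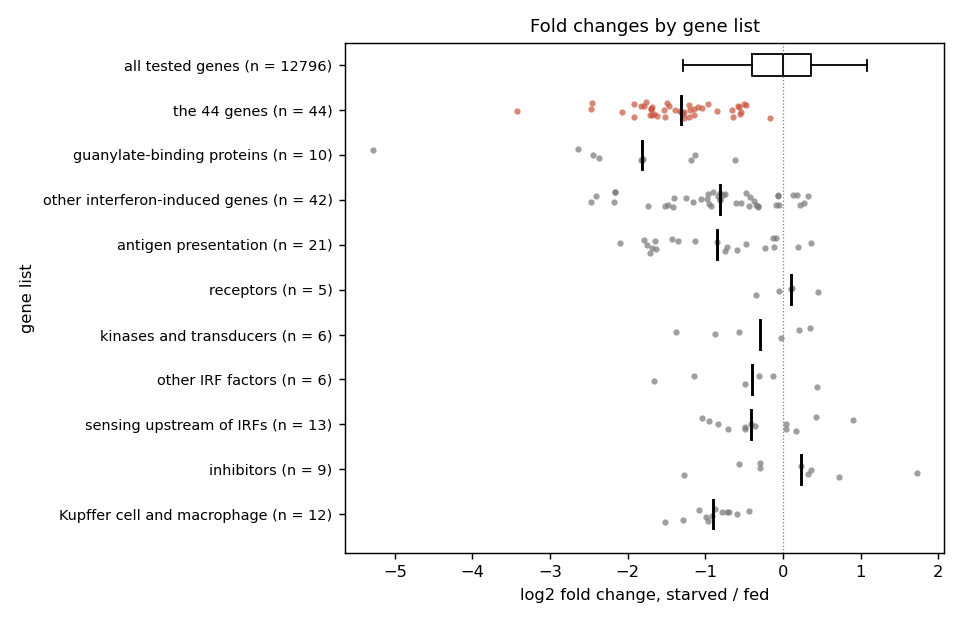
Each point is a tested gene, by list, with its log2 fold change (starved over fed) on the x axis; black bars are list medians and the top box shows all 12796 tested genes (quartiles, with whiskers from the 5th to the 95th percentile). The guanylate-binding proteins have the lowest median, at −1.82, while the receptors and inhibitors have medians above 0, that of the inhibitors moving from 0.24 to −0.023 without starved libraries 2 and 4.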

How the data were processed

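The authors deposited whole-number counts of reads per gene for each library, made, per the submitters' processing notes, with CASAVA 1.8.2, TopHat2 2.0.0, Bowtie2 2.0.0 and HTSeq on mm10; those notes also list edgeR 3.6.4. The labels' protocols name RNeasy and a TruSeq Stranded Total kit; no label or header used here gives the strand setting or annotation of the counting, so overlapping genes on opposite strands may share reads. Reads not assigned uniquely were 38.6 to 48.4% of those tallied, and reads in no gene 16.0 to 24.7%; the 5 tally lines of each file were left out of totals and tests.

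From these counts edgeR 4.0.16 (R 4.3.3; TMM scaling, filterByExpr, glmQLFit, glmQLFTest) compared starved with fed libraries, with Benjamini-Hochberg adjustment over 12796 genes and a threshold of 0.05. Standard errors were the log2 fold change divided by the root of F. DESeq2 1.42.0 and limma 3.58.1 were alternatives, as were other scalings, filters and leaving out libraries. The fit was tested on simulated counts. The members and lists were chosen with earlier results of these data known. In each role group values are given for up to 3 called genes that changed most and reached 1 CPM in the higher group; from other lists up to 3 called in each direction are named, and Socs1, Socs3 and Ifnar1 in any case; 1 gene under this rule is not reported here. Shared sequence was counted as 50-base windows of GENCODE M21 transcripts found in other genes. Protein sequences were not analysed here.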

Additional observations from a re-analysis of the deposited data

Results flagged for a closer look

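Within each group of 5 libraries, 5 of the 88 sets of values held 1 library far from the other 4; chance alone gives about 1 in 20. In fed livers, library 1 was lowest for Dhx58 at 4.39 CPM, with the others at 6.32 to 7.06 CPM. Fed library 2 was highest for Oasl1 at 12.6 CPM (the others 7.94 to 8.98 CPM) and for Ifit1 at 26.1 CPM (the others 13.4 to 16.3 CPM). In starved livers, library 2 was highest for Oas3 at 5.34 CPM (the others 2.92 to 3.25 CPM) and for Mx2 at 7.27 CPM (the others 2.38 to 3.71 CPM), although that library was among the lowest for most of the 44 genes.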

How the results depend on the processing

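Of the 39 genes called lower, 35 kept the call without each library in turn and 32 kept it in each of the 21 alternatives that tested them, a threshold of 0.01 and the removal of starved libraries 2 and 4 (chosen after seeing the data) included. Of these 32, 29 were tested in all 21; Oas1g, Oas2 and Tgtp2 did not pass the filter of 1 CPM in 5 libraries. Leaving out 1 library at a time gave 36 to 41 genes lower and 0 higher, a median log2 fold change of −1.46 to −1.26, 35 to 39 genes without overlap, 3 to 4 pathway genes higher and 10 to 13 lower, and 0 to 1 other interferon-induced genes higher (1 without starved library 1) and 26 to 29 lower. At a threshold of 0.01, 2 pathway genes were called higher in place of 4. Oas3, Rsad2 and Ifi35 passed with DESeq2's Wald test, limma-voom, edgeR's likelihood ratio test and scaling by library totals alone, which each called 42 of the 44. The shares of all tested genes called in the alternatives of this section are not given here. These counts therefore show how calls changed, not how the 44 genes stood against other genes. The uncalled values of 2 genes changed sign: the log2 fold change of Ifnar1 became −0.0409 with library totals alone, where the median of all genes moved to −0.15, and the log2 fold change of Socs3 became −0.23 without starved libraries 2 and 4. The cause was not tested.

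The replicate numbers gave little sign of pairing the libraries. Deviations of same-numbered libraries correlated at −0.061 to 0.254, only 1 of 5 pairs was above 0.1, and 2 of 5 starved libraries correlated best with their own number. Such correlations cannot show that the libraries were unpaired by design. With the replicate block 39 of the 44 genes were called lower, with a median log2 fold change of −1.38; Usp18 and Dtx3l lost and Rsad2 and Ifi35 gained the call. Depth limits the low genes: 8 of the 44 had under 10 counts in some starved library.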
